A study of Mus musculus with 46 samples.

Results

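Cdcp1, Sema6a, Alcam, Gria3, Hyal2, Mcc, Fam83g and Trp53rkb are the 8 genes with the largest rises among well-expressed genes in primitive endoderm (PrE)-induced mouse cells labelled Virma cKO. They were chosen from 21812 genes by 4 conditions in the Virma table: an adjusted p under 0.05, a mean level of at least 10 CPM (counts scaled to library size), groups that did not overlap, and a symbol that is no predicted locus name. A total of 1454 rising genes met these conditions, and the 8 with the largest log2 changes are described here in all 7 count tables of the series. Because the Virma contrast chose them, its values are given as a description with no test.

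The series measured RNA in 46 libraries in 19 groups, all from mouse EPSCs, pluripotent stem cells grown in conditions that broaden their developmental potential, or from cells and embryoids made with them. Cells in PrE-inducing medium (PrEdiff) were labelled Virma cKO and WT, Mettl3 cKO and WT, and siIgf2bp3 and siNC, with 2 libraries each. Further induced cells were CD140+ (PrE-E) or CD140- (EPI-E), with 2 libraries each, and VE and EPI were parts of 5-day embryoids grown from EPSCs and GBL-1 cells, with 6 libraries each. EPSCs (EPS) and PrEdiff cells were also taken after 0, 1, 2 and 3 h of actinomycin D, which blocks transcription, with 2 libraries per state and time, and 2 EPSC libraries stood in a table of their own. The cKO genotype was given with no Cre driver, inducing agent, clone or time of deletion, and nothing stated that replicates were separate cultures. P-values therefore measured the spread between these libraries, which may be technical.

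Virma is a scaffold subunit of the complex that writes N6-methyladenosine (m6A) on messenger RNA, and Mettl3 is the catalytic subunit of the same complex. The mark is read by proteins that speed the loss of a transcript or, like Igf2bp3, are known for stabilising it. PrE is the early cell layer that gives rise to the yolk sac lining, while the neighbouring epiblast (EPI) forms the embryo proper; visceral endoderm (VE) derives from PrE.

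The 8 genes encode proteins of several kinds. Cdcp1 is a transmembrane protein phosphorylated by Src family kinases. Sema6a is a transmembrane semaphorin that binds A-type plexins, and Alcam is an adhesion molecule of the immunoglobulin superfamily. Gria3 is a subunit of AMPA-type glutamate receptors, and Hyal2 is a membrane-anchored hyaluronidase, an enzyme that cuts hyaluronan in the extracellular matrix. Mcc is an intracellular protein known for binding beta-catenin, and Fam83g anchors casein kinase 1 and acts in Wnt and BMP signalling. Trp53rkb is a kinase subunit of the KEOPS complex, which takes part in the modification of transfer RNAs.

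Total counts per library ran from 6854433 to 22280769. CPM values are counts scaled with TMM factors within each table, and a level set across tables carries the limit that the tables were scaled separately. Virma fell to 67.7 and 54.6 CPM in Virma cKO libraries, against 107 and 110 CPM in Virma WT libraries (log2 change -0.82 ± 0.12 SE, edgeR quasi-likelihood test, Benjamini-Hochberg adjusted p = 1.12e-06). Mettl3 had 34.9 and 37.1 CPM in the libraries labelled Mettl3 cKO and 37.4 and 35.2 CPM in Mettl3 WT libraries (-0.02 ± 0.11, adjusted p = 0.978). Igf2bp3 had 117 and 111 CPM in the libraries labelled siIgf2bp3 and 98.4 and 113 CPM in siNC libraries (0.11 ± 0.11, adjusted p = 0.577). Virma was thus lower in the libraries with its label. Of all genes tested in the Virma table, 8.43% had a lower log2 change. The deleted part of Virma is not stated. Igf2bp3 was not lower in the libraries labelled siIgf2bp3, with groups that overlapped, so its level did not bear out that label. By the same edgeR test Igf2bp3 fell in Virma cKO libraries, to 38.8 and 44.5 CPM, against 91.7 and 107 CPM in Virma WT libraries (-1.26 ± 0.13, adjusted p = 1.6e-09). It was not called with the Mettl3 cKO label (-0.09 ± 0.07, adjusted p = 0.655). The level of Mettl3 gave no check of the Mettl3 cKO label, since reads outside a deleted part would still be counted and the deleted part is not stated. Of 10 PrE markers, 10 fell in Virma cKO libraries, where they summed to 0.0333 to 0.0346% of counts, against 0.488 to 0.503% in Virma WT libraries. They also fell for 8 of 10 in the libraries labelled Mettl3 cKO (0.598 to 0.616% against 0.859 to 0.862% in Mettl3 WT) and for 10 of 10 in those labelled siIgf2bp3 (0.337 to 0.341% against 0.725 to 0.794% in siNC).

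In Virma cKO cells the 8 genes lay between 17.1 and 69.9 CPM, and in Virma WT cells between 2.88 and 17.7 CPM. Cdcp1 had 23.3 and 26.4 CPM in Virma cKO libraries, against 3.21 and 6.62 CPM in Virma WT libraries, a log2 difference of 2.32. Sema6a had 17.8 and 28.0 CPM in Virma cKO libraries and 5.82 and 3.92 CPM in Virma WT libraries (2.24). Hyal2 had 23.0 and 20.5 CPM in Virma cKO libraries and 6.62 and 2.88 CPM in Virma WT libraries (2.21). The size of these differences rested in part on 1 library. The WT libraries of Cdcp1 and Hyal2 lay apart from each other. Without Virma WT replicate 1 or replicate 2 the difference was 1.91 or 2.95 for Cdcp1 and 2.92 or 1.72 for Hyal2. For Sema6a it was 1.87 without Virma cKO replicate 2.

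Mcc had the highest level of the 8, with 69.9 and 64.7 CPM in Virma cKO libraries, against 17.7 and 17.0 CPM in Virma WT libraries (1.96). Gria3 had 18.9 and 21.5 CPM in Virma cKO libraries and 4.11 and 6.36 CPM in Virma WT libraries (1.94). Fam83g had 28.3 and 29.2 CPM in Virma cKO libraries and 7.42 and 7.93 CPM in Virma WT libraries (1.90). These genes had close replicates in both groups, apart from Gria3 in WT, where the difference was 2.29 without Virma WT replicate 2. Alcam had 22.6 and 30.0 CPM in Virma cKO libraries, against 7.12 and 6.97 CPM in Virma WT libraries (1.90). Trp53rkb had 26.1 and 17.1 CPM in Virma cKO libraries, against 5.11 and 6.62 CPM in Virma WT libraries (1.87). Without Virma cKO replicate 1 its difference was 1.54. The choice of genes put all 8 among the called rises and among genes with groups that do not overlap. Of 13113 genes tested there, 33.2% were called, 15.1% as rising and 18% as falling, and 33.3% had cKO libraries wholly above and 32.1% wholly below the WT libraries. The next 2 genes by the same rule, had log2 differences of 1.86 (Fgd5) and 1.85 (Mapk4), just under that of Trp53rkb. Among all genes tested, with no minimum level, the 8 ranked 241 to 410 for their rise.

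**Figure D1:**
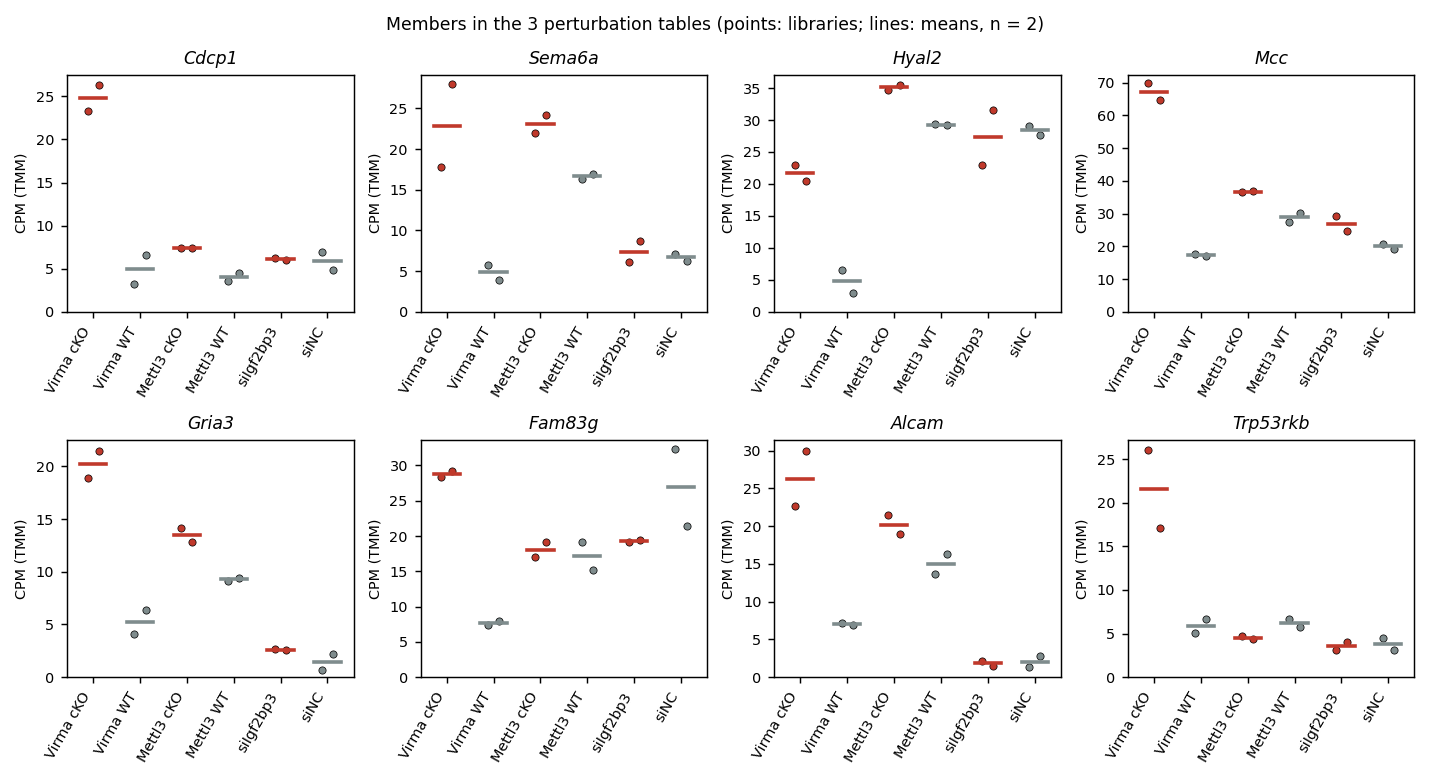
CPM of each of the 8 genes (vertical axis, linear, from 0) in Virma cKO and WT, Mettl3 cKO and WT, and siIgf2bp3 and siNC libraries. Points are libraries and lines are means of 2. The Virma cKO points lie above the Virma WT points in all 8 panels because the genes were chosen for it, and the Mettl3 cKO points lie above the Mettl3 WT points in 6 panels.

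Levels in the Virma WT libraries differed from those in other PrE-induced controls, which stand in separately scaled tables. Hyal2 averaged 4.75 ± 2.65 CPM in Virma WT (SD, n = 2), the lowest of the 19 groups, while it averaged 29.3 ± 0.04 CPM in Mettl3 WT, 28.4 ± 1.06 CPM in siNC and 13.9 ± 0.47 CPM in PrEdiff at 0 h. The Virma cKO mean of 21.8 CPM thus lay below the Mettl3 WT and siNC means. Fam83g averaged 7.67 ± 0.36 CPM in Virma WT, against 17.2 ± 2.81 CPM in Mettl3 WT and 26.9 ± 7.73 CPM in siNC, and its Virma cKO range overlapped that of siNC. Sema6a averaged 22.9 ± 7.23 CPM in Virma cKO, beside 16.7 ± 0.43 CPM in Mettl3 WT, and Alcam averaged 26.3 ± 5.22 CPM in Virma cKO, beside 15.0 ± 1.88 CPM in Mettl3 WT and 2.06 ± 1.03 CPM in siNC. The choice of genes favoured high levels in Virma cKO and low levels in Virma WT. Of the 8 genes, Cdcp1, Mcc, Gria3, Fam83g and Alcam had their highest mean of all groups in Virma cKO. Sema6a was highest in EPI-E, and Hyal2 and Trp53rkb were highest in embryoid EPI.

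In cells labelled Mettl3 cKO, 1 of the 8 genes rose and 0 fell, in a table where 3.95% of 13115 genes were called, 2.51% as rising and 1.44% as falling. Cdcp1 had 7.42 and 7.35 CPM in libraries labelled Mettl3 cKO, against 3.55 and 4.56 CPM in Mettl3 WT libraries. The groups did not overlap, and the gene rose 1.83-fold (log2 change 0.87 ± 0.25, adjusted p = 0.0421 by edgeR's quasi-likelihood test). The call was lost without Mettl3 WT replicate 1 (0.69, adjusted p = 0.316), cKO replicate 1 (0.86, adjusted p = 0.157) or cKO replicate 2 (0.88, adjusted p = 0.107), and with scaling to ribosomal protein genes (0.83, adjusted p = 0.112). Over all alternatives that left out a library, its adjusted p ran from 0.0443 to 0.316. DESeq2 gave it no adjusted p.

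Sema6a had 22.0 and 24.2 CPM in libraries labelled Mettl3 cKO, against 16.4 and 17.0 CPM in Mettl3 WT libraries. Its groups did not overlap, and the difference of 0.47 ± 0.14 missed the threshold (adjusted p = 0.0574), passing it with scaling to library totals (0.48, adjusted p = 0.0412) and without the low-count filter (0.46, adjusted p = 0.0429). Gria3 had 14.1 and 12.8 CPM in libraries labelled Mettl3 cKO, against 9.17 and 9.43 CPM in Mettl3 WT libraries (0.54 ± 0.17, adjusted p = 0.0888). Mcc had 36.5 and 36.9 CPM in libraries labelled Mettl3 cKO and 27.5 and 30.2 CPM in Mettl3 WT libraries (0.35 ± 0.11, adjusted p = 0.0865). For Sema6a, Gria3 and Mcc every cKO library was above every WT library.

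Alcam had 21.5 and 18.9 CPM in libraries labelled Mettl3 cKO and 13.7 and 16.4 CPM in Mettl3 WT libraries (0.44 ± 0.15, adjusted p = 0.121). Hyal2 had 34.7 and 35.5 CPM in libraries labelled Mettl3 cKO and 29.3 CPM in both Mettl3 WT libraries (0.26 ± 0.11, adjusted p = 0.264). Fam83g overlapped between the groups, with 17.0 and 19.1 CPM in libraries labelled Mettl3 cKO and 19.2 and 15.2 CPM in Mettl3 WT libraries (0.06 ± 0.15, adjusted p = 0.932). Trp53rkb went the other way: it had 4.77 and 4.32 CPM in libraries labelled Mettl3 cKO and 6.69 and 5.76 CPM in Mettl3 WT libraries, a difference of -0.45 ± 0.25 that missed the threshold (adjusted p = 0.443) with groups that did not overlap.

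In all, 6 of the 8 genes had libraries labelled Mettl3 cKO wholly above the WT libraries, where 22.5% of all genes tested did, and 1 had them wholly below, where 19.9% did. The median log2 change of the 8 genes was 0.39, beside 0.00 for all genes tested, and 90% of all genes lay between -0.37 and 0.56. The rule's table and the Mettl3 table share no library. Whether the Virma and Mettl3 effects on a gene differ in size was not tested, as they come from separate tables.

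Markers of fibroblasts moved with both cKO labels. The 12 markers summed to 0.291 to 0.295% of counts in Virma cKO libraries, against 0.107% in Virma WT libraries, and to 0.358 to 0.375% in libraries labelled Mettl3 cKO, against 0.249 to 0.262% in Mettl3 WT libraries. All 12 fibroblast markers rose in both comparisons (median log2 change 1.24 and 0.52), and none was at 0 in any of these libraries. Their share was 0.0768% in both libraries labelled siIgf2bp3, against 0.0660 and 0.0856% in siNC libraries, and 3 of 12 rose there. Pluripotency markers moved too: 6 of 10 fell in Virma cKO libraries, where they summed to 0.112 to 0.114% of counts, against 0.152 to 0.160% in Virma WT libraries. With the siIgf2bp3 label 6 of 10 rose, to a sum of 0.389 to 0.399%, against 0.317 to 0.340% in siNC libraries, and with the Mettl3 label 0 of 10 were called. Among 6 neural ectoderm markers tested, 2 rose in Virma cKO, and the 10 on the list summed to 0.0170 to 0.0179% of counts in Virma cKO libraries, against 0.00773 to 0.00897% in Virma WT libraries, with up to 2 at 0. The part of any of these markers in the levels of the 8 genes was not tested. In bulk samples, a larger share of cells of a type and more RNA per cell cannot be told apart.

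In cells labelled siIgf2bp3, 0 of the 8 genes were called, in a table where 7.32% of 12918 genes were called by edgeR, 2.79% as rising and 4.52% as falling. Mcc and Gria3 had libraries labelled siIgf2bp3 wholly above the siNC libraries, as did 29.8% of all genes, and Fam83g had them wholly below, as did 27.4%. The unadjusted p was under 0.05 for Mcc and Fam83g, as it was for 3388 of all 12918 genes. Mcc had 29.3 and 24.6 CPM in libraries labelled siIgf2bp3, against 20.8 and 19.3 CPM in siNC libraries (0.42 ± 0.16, adjusted p = 0.120). Fam83g had 19.1 and 19.5 CPM in libraries labelled siIgf2bp3, against 32.4 and 21.5 CPM in siNC libraries (-0.48 ± 0.20, adjusted p = 0.151). The siNC libraries of Fam83g lay far apart, and those of Mcc lay close together. Gria3 was at 22 counts in each library labelled siIgf2bp3 and at 6 and 18 counts in siNC libraries (0.84 ± 0.51, adjusted p = 0.321).

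The siNC libraries stood apart from each other, and calls in this table turned on them. Without siNC replicate 1, Mcc was called (0.46, adjusted p = 0.0358), and without siNC replicate 2, Gria3 (1.83, adjusted p = 0.0233) and Fam83g (-0.75, adjusted p = 1.86e-05) were called. The number of all genes called ran from 236 to 4948 over the fits that left out 1 library. Cdcp1, Sema6a, Hyal2, Alcam and Trp53rkb overlapped between the groups, with log2 changes between -0.15 and 0.14. Of these 5 the interval was widest for Alcam (95% interval -1.12 to 0.81), at 11 to 23 counts per library.

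**Figure D2:**
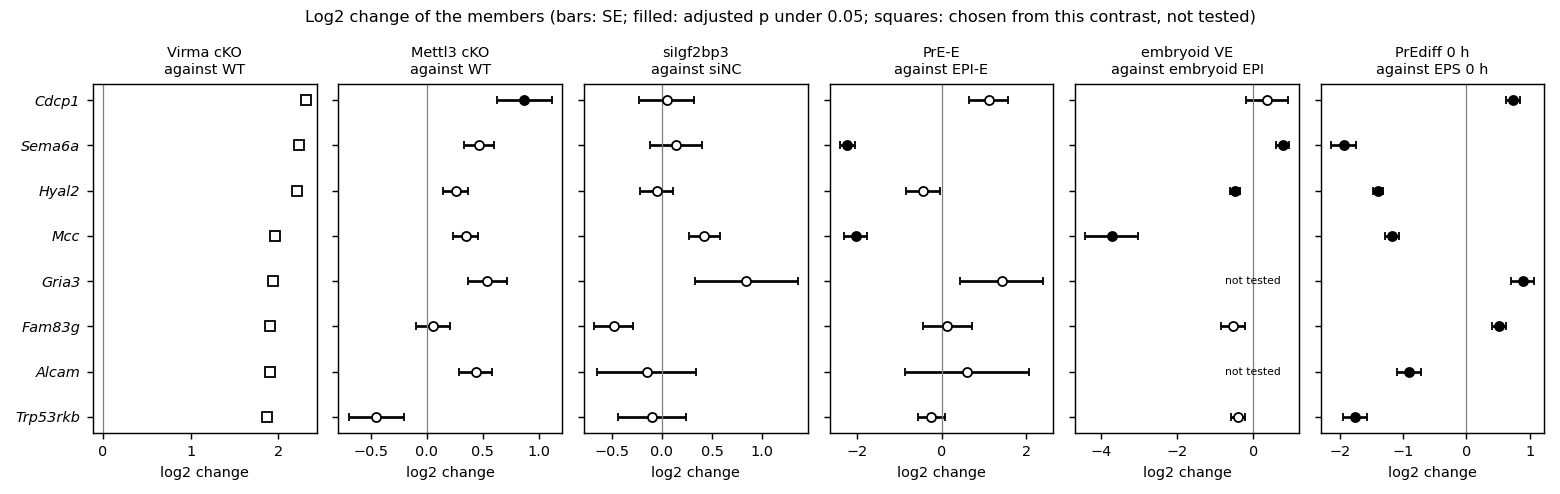
Log2 change of each of the 8 genes (horizontal axes, scaled separately) in 6 comparisons, each the first-named group against the second. Bars are 1 SE, filled points are genes with an adjusted p under 0.05, and open squares in the Virma panel are the values that chose the genes. Cdcp1 is the filled point for Mettl3 cKO, 0 points are filled for siIgf2bp3, and Sema6a lies on opposite sides of 0 in the sorted cells and the embryoids.

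Between cell states, 2 of the 8 genes were called in the sorted cells, 3 of 6 tested in the embryoids and all 8 between PrEdiff and EPS, each beside a large share of all genes. In the sorted cells Sema6a and Mcc fell in PrE-E, and the other 6 were not called, where 57.7% of 12423 genes were called, 28.3% as rising and 29.5% as falling. PrE-E libraries lay wholly above EPI-E for Cdcp1 and Gria3, as for 39% of all genes, and wholly below for Sema6a, Mcc and Hyal2, as for 40.9%. Sema6a had 13.3 and 13.1 CPM in PrE-E libraries, against 60.2 and 63.2 CPM in EPI-E libraries (4.68-fold lower in PrE-E, -2.23 ± 0.18, adjusted p = 2.42e-07). Mcc had 9.33 and 5.80 CPM in PrE-E libraries, against 30.2 and 31.4 CPM in EPI-E libraries (-2.03 ± 0.28, adjusted p = 3.91e-05). Both genes had groups far apart for their spread. Cdcp1 was above EPI-E in both PrE-E libraries, with 11.7 and 6.77 CPM in PrE-E and 4.18 and 4.34 CPM in EPI-E, and missed the threshold (1.11 ± 0.46, adjusted p = 0.0562). It passed without PrE-E replicate 2 (1.43, adjusted p = 0.0243) and with scaling to ribosomal protein genes (1.37, adjusted p = 0.0210).

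The remaining genes of the sorted cells were not called. Alcam had 0 and 41 counts in PrE-E libraries and 6 and 18 counts in EPI-E libraries, so its difference of 0.60 ± 1.46 rested on PrE-E replicate 2 and was -6.61 without it. Fam83g had 3.47 and 8.57 CPM in PrE-E libraries and 7.69 and 3.35 CPM in EPI-E libraries. Gria3 had 22 and 59 counts in PrE-E libraries and 24 and 6 counts in EPI-E libraries (1.41 ± 0.98, adjusted p = 0.239). The log2 difference was -0.43 ± 0.40 for Hyal2 (adjusted p = 0.381) and -0.25 ± 0.32 for Trp53rkb (adjusted p = 0.532). The 10 PrE markers rose in PrE-E for 10 of 10, and of 10 pluripotency markers 8 fell and 2 rose.

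In the embryoids 6 of the 8 genes passed the low-count filter, of which 1 rose and 2 fell in VE, where 72.5% of 11254 genes were called, 34.5% as rising and 38% as falling. The VE libraries lay wholly above the EPI libraries for 26.9% of all genes and wholly below for 28.4%. Sema6a ran from 23.3 to 31.0 CPM in the 6 VE libraries (median 28.8) and from 13.0 to 19.6 CPM in the 6 EPI libraries (median 16.5). No VE library was as low as an EPI library, and the gene rose 1.71-fold in VE (0.77 ± 0.16, adjusted p = 0.000223). Sema6a therefore fell in PrE-E against EPI-E and rose in embryoid VE against embryoid EPI. The difference between these effects was not tested, since the tables share no library. Mcc ran from 0 to 1.20 CPM in VE libraries (median 0.366, 0 to 9 counts) and from 2.82 to 9.81 CPM in EPI libraries (median 6.24). Its groups did not overlap, and it fell 13.3-fold in VE (-3.74 ± 0.69, adjusted p = 6.18e-05).

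Hyal2 ran from 40.8 to 57.4 CPM in VE libraries (median 51.0) and from 51.6 to 95.7 CPM in EPI libraries (median 66.3). Its groups overlapped, and it fell in VE (-0.49 ± 0.14, adjusted p = 0.00370), a call that was lost with scaling to ribosomal protein genes (-0.16, adjusted p = 0.303). Trp53rkb ran from 12.7 to 26.5 CPM in VE and from 19.9 to 30.4 CPM in EPI (-0.39 ± 0.19, adjusted p = 0.0642). Cdcp1 (0.37 ± 0.55, adjusted p = 0.559) and Fam83g (-0.52 ± 0.32, adjusted p = 0.145) overlapped between VE and EPI. Gria3 had 0 counts in all 6 VE libraries, and 45, 19 and 1 counts in 3 of the EPI libraries with 0 in the others. Alcam had 0 to 4 counts in VE and 0 to 14 counts in EPI. Fibroblast markers were also near 0 in the embryoids, with 7 to 11 of 12 at 0 in VE libraries and 6 to 10 at 0 in EPI libraries.

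**Figure D3:**
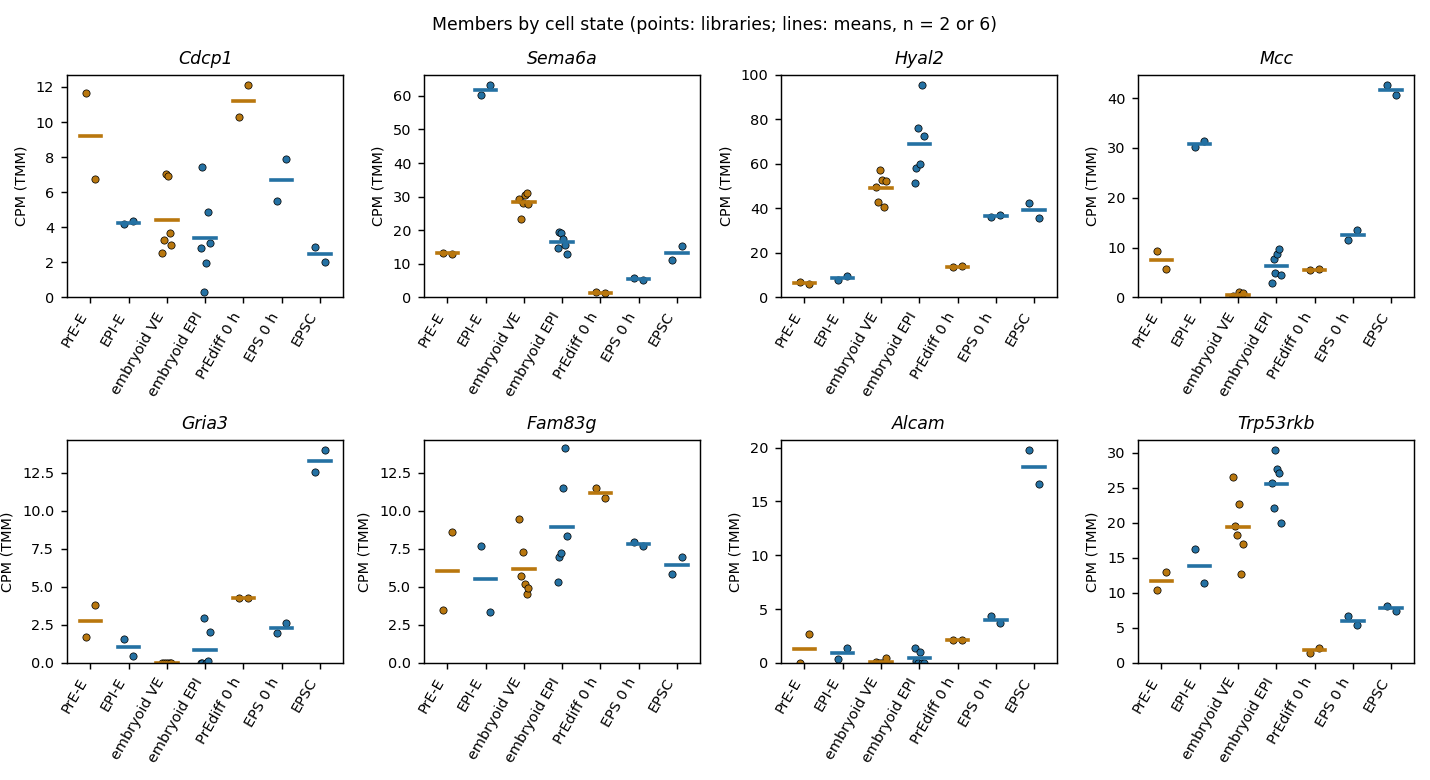
CPM of the 8 genes (vertical axis, linear, from 0) in PrE-E, EPI-E, embryoid VE, embryoid EPI, PrEdiff at 0 h, EPS at 0 h and EPSC libraries. Points are libraries and lines are group means of 2 or 6. Mcc is lower in the PrE-side group than in its partner in all 3 pairs, and Gria3 and Alcam are near 0 in embryoids.

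Before actinomycin D, all 8 genes differed between PrEdiff and EPS cells, where 80.5% of 14127 genes were called, 37.6% as rising and 42.9% as falling: 3 of the 8 rose and 5 fell. Cdcp1 had 10.3 and 12.1 CPM in PrEdiff libraries, against 5.50 and 7.91 CPM in EPS libraries (1.67-fold, 0.74 ± 0.11). Gria3 had 4.27 and 4.28 CPM in PrEdiff libraries and 1.99 and 2.61 CPM in EPS libraries (0.89 ± 0.18). Fam83g had 11.5 and 10.8 CPM in PrEdiff libraries and 7.97 and 7.68 CPM in EPS libraries (0.51 ± 0.11). These were the 3 that rose, with adjusted p values from 4.42e-10 to 4.43e-06.

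Sema6a had the largest fall, with 1.49 and 1.36 CPM in PrEdiff libraries, against 5.84 and 5.17 CPM in EPS libraries (-1.94 ± 0.20, adjusted p = 7.55e-19). Trp53rkb had 1.39 and 2.14 CPM in PrEdiff libraries and 6.64 and 5.40 CPM in EPS libraries (-1.76 ± 0.18). Hyal2 had 13.6 and 14.2 CPM in PrEdiff libraries and 36.2 and 37.1 CPM in EPS libraries (-1.40 ± 0.07). Mcc had 5.55 and 5.64 CPM in PrEdiff libraries and 11.6 and 13.6 CPM in EPS libraries (-1.18 ± 0.11). Alcam had 2.13 and 2.09 CPM in PrEdiff libraries and 4.32 and 3.66 CPM in EPS libraries (-0.91 ± 0.19). The 8 genes had groups that did not overlap, as 42.2% of all genes did above and 47.4% below. Mcc was thus lower on the PrE side in all 3 comparisons of state, with tests in separate tables. Of all genes, 29.5% were called as falling in PrE-E, 38% in embryoid VE and 42.9% in PrEdiff. The share that fell in all 3 was not counted. Replicates of the actinomycin D table differed little more than counting error (chi-square per degree of freedom 1.21 to 1.32), so these p-values may measure counting error for the most part. Of 12 fibroblast markers, 10 fell and 2 rose in PrEdiff at 0 h. They summed to 0.0178 to 0.0187% of counts there, against 0.0273 to 0.0277% in EPS at 0 h.

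EPS at 0 h and the separate EPSC libraries carry the same cell type label and stand in separately scaled tables, so their levels are set side by side with no test. Mcc averaged 41.6 ± 1.41 CPM in EPSC libraries, beside 12.6 ± 1.42 CPM in EPS at 0 h. Gria3 averaged 13.3 ± 1.02 CPM in EPSC libraries and 2.30 ± 0.43 CPM in EPS at 0 h, and Alcam averaged 18.2 ± 2.23 CPM in EPSC libraries and 3.99 ± 0.47 CPM in EPS at 0 h. Sema6a averaged 13.2 ± 3.11 CPM in EPSC libraries and 5.50 ± 0.47 CPM in EPS at 0 h, and Trp53rkb averaged 7.77 ± 0.49 and 6.02 ± 0.88 CPM. Cdcp1 went the other way, averaging 2.47 ± 0.61 CPM in EPSC libraries and 6.71 ± 1.70 CPM in EPS at 0 h. So did Fam83g, at 6.40 ± 0.83 and 7.83 ± 0.20 CPM. Hyal2 overlapped, averaging 39.1 ± 4.74 CPM in EPSC libraries and 36.6 ± 0.67 CPM in EPS at 0 h (SD, n = 2 each). Fibroblast markers summed to 0.175 to 0.176% of counts in EPSC libraries and 0.0273 to 0.0277% in EPS at 0 h. Their part in these levels was not tested.

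Loss after actinomycin D was measured as a slope in log2 CPM per hour, relative to the average transcript, as the TMM scaling removes any loss that all transcripts share. In PrEdiff cells, 3 of the 8 genes fell and 0 rose, where 16.6% of 14127 genes were called as falling, 20.3% as rising and 36.9% in either direction. That count depended on the setting, as did the count of all genes. With scaling to library totals 6 of the 8 fell in PrEdiff, where 4802 of 14127 genes were called as falling. With 2 h against 0 h alone 6 were called, of which Gria3 rose, where 9456 of 14127 genes were called. In EPS cells, 5 of the 8 fell and 1 rose, where 18.5% were called as falling, 18.2% as rising and 36.7% in either direction. The median slope of the 8 was -0.23 in PrEdiff and -0.38 in EPS, beside 0.02 and 0.06 for all genes. The slopes and the comparison at 0 h use the same 0 h libraries.

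Fam83g fell steadily in both states. At 1, 2 and 3 h it was at 81.7, 62.2 and 35.2% of its 0 h mean in PrEdiff, and at 70.2, 43.5 and 19.9% in EPS. Its slope was -0.48 ± 0.07 in PrEdiff (adjusted p = 7.07e-05) and -0.74 ± 0.07 in EPS (adjusted p = 1.09e-06), and all its libraries lay below the 0 h libraries at every later time in both states. Of all genes, 2.49% had a lower slope in EPS.

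Trp53rkb was at 57.5, 40.0 and 43.7% of its 0 h mean after 1, 2 and 3 h in PrEdiff, and at 95.5, 46.2 and 17.0% in EPS. The slope was -0.45 ± 0.16 in PrEdiff (adjusted p = 0.0349) and -0.82 ± 0.13 in EPS (adjusted p = 0.000136). PrEdiff values rested on 8 to 41 counts per library, and the PrEdiff call was lost in 5 of the 16 fits that left out 1 library (adjusted p 0.0124 to 0.236 over all 16). The libraries whose removal ended it were PrEdiff 0 h replicates 1 and 2, PrEdiff 2 h replicates 1 and 2, and PrEdiff 3 h replicate 1.

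Hyal2 stayed near its 0 h level for 2 h in PrEdiff, at 108, 104 and 75.6% after 1, 2 and 3 h, and in EPS it was at 92.0, 66.8 and 31.9%. It fell in EPS (-0.53 ± 0.08, adjusted p = 6.74e-05) and was not called in PrEdiff (-0.12 ± 0.08, adjusted p = 0.230). The difference of slopes, 0.41 ± 0.11, was the largest of the 8 and missed the threshold (adjusted p = 0.0921), and it passed with DESeq2 (0.41, adjusted p = 0.0143), with scaling to library totals (0.38, adjusted p = 0.0487) and without EPS 2 h replicate 2 (0.44, adjusted p = 0.0374).

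Sema6a was at 95.4, 60.4 and 49.9% after 1, 2 and 3 h in PrEdiff and at 61.4, 61.9 and 32.5% in EPS. It fell in EPS (-0.48 ± 0.10, adjusted p = 0.00210), and in PrEdiff its slope of -0.37 ± 0.14 missed the threshold (adjusted p = 0.0505) at 6 to 34 counts per library. Cdcp1 was at 86.2, 79.7 and 83.7% in PrEdiff and at 69.2, 55.4 and 57.2% in EPS. It fell in EPS (-0.28 ± 0.06, adjusted p = 0.00226) and was not called in PrEdiff (-0.09 ± 0.06, adjusted p = 0.249). Without the 3 h libraries Cdcp1 was called in PrEdiff too (-0.21, adjusted p = 0.0183).

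Mcc was at 86.4, 58.9 and 51.0% after 1, 2 and 3 h in PrEdiff, where it fell (-0.35 ± 0.09, adjusted p = 0.0101). In EPS it was at 62.6, 52.7 and 77.1%, lower at 2 h than at 3 h, and its slope was not called (-0.14 ± 0.08, adjusted p = 0.183). Without the 3 h libraries the EPS slope was -0.45 and called (adjusted p = 3.90e-05). The EPS call for Mcc thus turned on the 3 h libraries.

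Gria3 and Alcam did not fall relative to the average transcript. Gria3 was at 105, 135 and 126% after 1, 2 and 3 h in PrEdiff and at 83.2, 89.6 and 143% in EPS, and it was called in neither state (0.14 ± 0.07, adjusted p = 0.147 in PrEdiff; 0.17 ± 0.07, adjusted p = 0.0797 in EPS). Alcam was at 87.0, 89.3 and 125% in PrEdiff and at 113, 119 and 171% in EPS. It rose in EPS (0.24 ± 0.07, adjusted p = 0.00960), a call that was lost without the 3 h libraries (0.16, adjusted p = 0.0686) and with scaling to library totals (0.14, adjusted p = 0.206). A rise here says that its level grew relative to the average transcript while transcription was blocked.

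Between the states, 0 of the 8 slopes differed by edgeR's test, where 1.27% of 14127 genes were called, 1.13% with a higher and 0.142% with a lower slope in PrEdiff. The unadjusted p was under 0.05 for Hyal2, Fam83g and Cdcp1, as it was for 1730 of 14127 genes. DESeq2 called 1 of the 8, Hyal2, and 528 of 14127 genes. The differences ran from -0.21 for Mcc to 0.41 for Hyal2, and the 95% intervals were wide for Trp53rkb (-0.04 to 0.78) and Sema6a (-0.24 to 0.46). With scaling to library totals, slopes of all genes moved down, to a median of -0.12 in PrEdiff and -0.05 in EPS. With that scaling 9.99% of the genes called in PrEdiff rose, against 55% with TMM factors, and 10.9% of those called in EPS rose, against 49.6%.

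**Figure D4:**
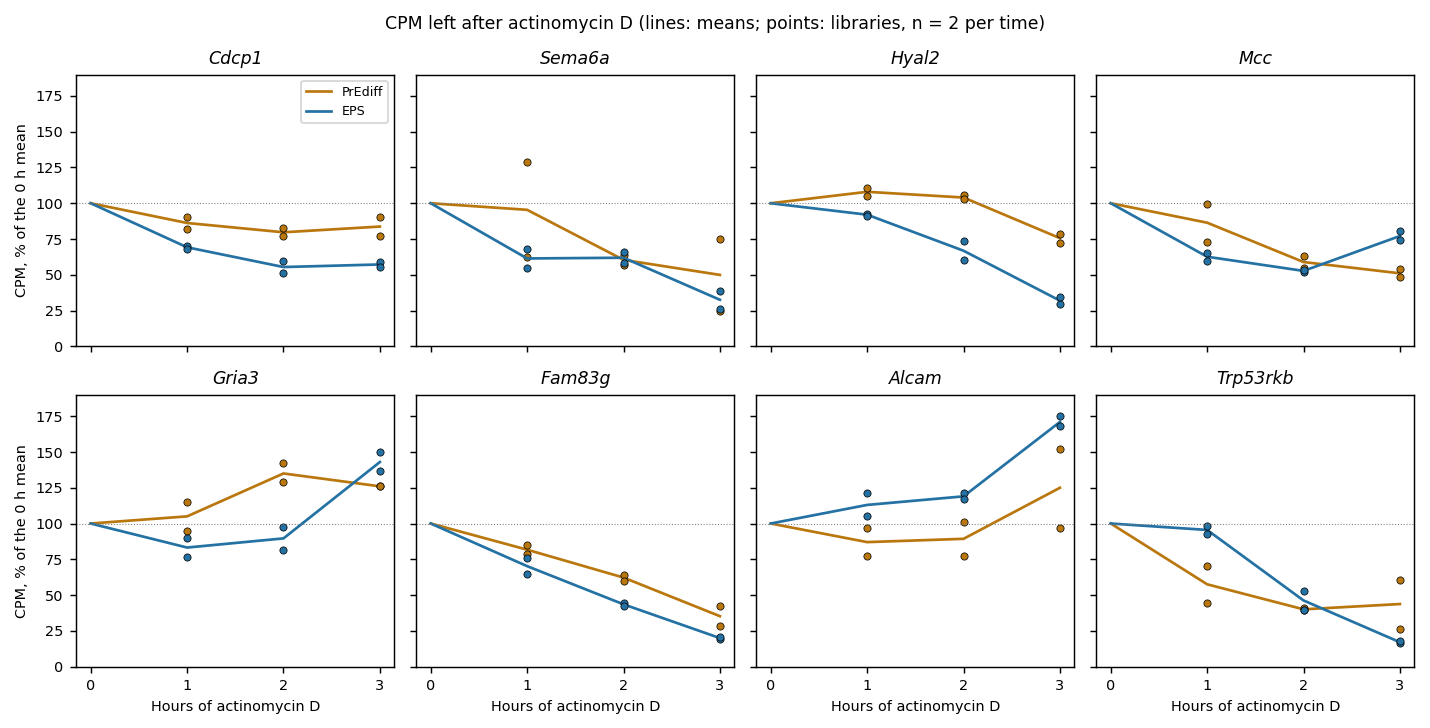
CPM of the 8 genes as a percentage of the 0 h mean (vertical axis, linear, from 0) after 1, 2 and 3 h of actinomycin D (horizontal axis, hours) in PrEdiff and EPS. Lines are means and points are libraries, 2 per time. Fam83g ends at 35.2% in PrEdiff and 19.9% in EPS, while Alcam ends at 125% and 171%.

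Trp53rkb has a near-identical copy, Trp53rka, and both stand on mouse chromosome 2, Trp53rkb on the plus strand and Trp53rka on the minus strand (GRCm38, GENCODE annotation). The coding sequences, both 732 bases long, match at 721 bases (98.5%) and differ at 11. The first 60 bases of both coding sequences are shown because they hold 4 of the differences, given in capitals:
Trp53rkb: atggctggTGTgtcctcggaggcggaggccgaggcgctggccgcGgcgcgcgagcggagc
Trp53rka: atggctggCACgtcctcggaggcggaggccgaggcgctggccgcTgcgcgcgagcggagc
Of all 100-base stretches of the Trp53rkb transcript, 10.1% were also found in the Trp53rka transcript, and 24.6% of those of Trp53rka were found in Trp53rkb. Reads from such stretches fit both genes, so counts of both are uncertain, to an extent that was not measured. In the promoter windows of both genes in RefSeq, 235 of 261 aligned bases matched.

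The copies moved apart in the Virma table. Trp53rka had 7.96 and 6.32 CPM in Virma cKO libraries, against 19.8 and 14.6 CPM in Virma WT libraries, and fell (-1.27 ± 0.31, adjusted p = 0.00137), while Trp53rkb was higher in Virma cKO by the choice of genes. The summed level of both genes was 34.0 and 23.4 CPM in Virma cKO libraries and 24.9 and 21.3 CPM in Virma WT libraries, which overlap. Trp53rkb was above Trp53rka in both Virma cKO libraries and below it in both Virma WT libraries. In the other tables Trp53rkb was below Trp53rka in every library except VE replicates 1 and 4. These are CPM not divided by length, and the transcripts are 4426 and 1880 bases long, so the order of the copies within a library is not an order of transcript abundance.

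In the Mettl3 table Trp53rka had 10.5 and 11.3 CPM in cKO libraries and 8.01 and 9.92 CPM in WT libraries (0.29 ± 0.19, adjusted p = 0.565), the other sign from Trp53rkb. Both fell at 0 h in PrEdiff against EPS, Trp53rka by less (-0.49 ± 0.09, adjusted p = 6.12e-07). Both were also called for decay in both states, with Trp53rka slopes of -0.44 ± 0.09 in PrEdiff and -0.43 ± 0.09 in EPS. At 3 h Trp53rka was at 37.5% of its 0 h mean in PrEdiff and 37.7% in EPS. Trp53rka fell in embryoid VE against EPI (-0.80 ± 0.15, adjusted p = 9.79e-05).

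**Figure D5:**
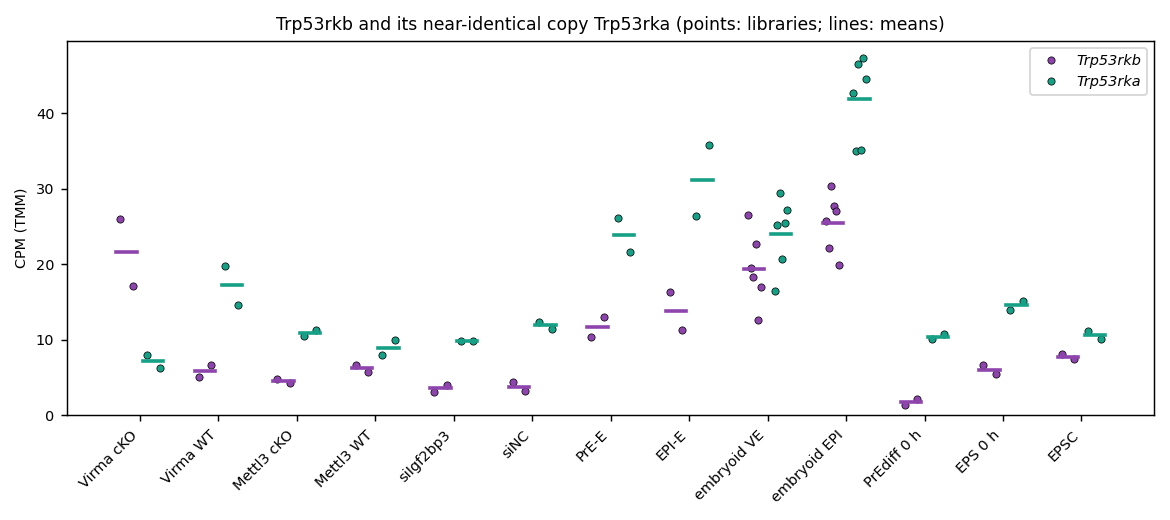
CPM of Trp53rkb and Trp53rka (vertical axis, linear, from 0) in 13 groups. Points are libraries and lines are group means. Trp53rkb lies above Trp53rka in Virma cKO, at 26.1 and 17.1 CPM against 7.96 and 6.32 CPM, and its group mean lies below that of Trp53rka in every other group shown.

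Fam83g overlaps Slc5a10, a sodium-coupled sugar transporter gene on the opposite strand, and the sources used here do not give the strand setting of the counting. Slc5a10 had 5 and 14 counts in Virma cKO libraries, where Fam83g had 338 and 346 counts, and it had 3 and 23 counts in Virma WT libraries. In libraries labelled siIgf2bp3 it had 9 and 8 counts, against 18 and 25 counts in siNC libraries. Hyal2, Mcc and Gria3 overlap noncoding genes that are absent from the count tables (Gm9917, A930012L18Rik and Gm22413).

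Lists of relatives and partners of the 8 genes, without the genes themselves, are counted beside shares of all genes called of 15.1% rising and 18% falling in the Virma table and 3.95% in either direction in the Mettl3 table. With 5 to 11 genes tested per list, no list is read as standing apart from these shares. Of 6 class 6 semaphorins and A plexins tested in the Virma table, 3 rose in Virma cKO and 0 fell, among them Sema6c (1.53 ± 0.51) and Plxna2 (0.83 ± 0.32). None of 7 was called in the Mettl3 table. Sema6d, a sister gene of Sema6a, rose in PrE-E (9.91 ± 0.49) and in PrEdiff at 0 h (3.47 ± 0.21), where Sema6a fell in both. Of 5 AMPA receptor subunits and auxiliary proteins tested, Gria4 (4.13 ± 1.47) and Grip1 (1.91 ± 0.51) rose in Virma cKO and 0 fell. Of 10 kinases, proteases and partners of Cdcp1, 5 rose and 1 fell in Virma cKO. Egfr, a receptor kinase, rose in Virma cKO (1.28 ± 0.23) and with the Mettl3 cKO label (0.49 ± 0.10, adjusted p = 0.00524).

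Of 9 genes of hyaluronan metabolism and binding, the hyaluronan receptor gene Cd44 rose in Virma cKO (1.26 ± 0.19) and with the Mettl3 cKO label (0.76 ± 0.09, adjusted p = 3.62e-06), while Has2, a hyaluronan synthase (-0.77 ± 0.14), Cemip (-2.34 ± 0.32) and Hmmr (-0.74 ± 0.07) fell in Virma cKO. Of 7 FAM83 and casein kinase 1 genes tested, Fam83b rose (1.33 ± 0.51) and Fam83h fell (-1.15 ± 0.38) in Virma cKO. Of 11 immunoglobulin adhesion molecules, 3 rose and Jam2 fell (-1.17 ± 0.26) in Virma cKO. Of 11 regulators and targets of beta-catenin, 3 rose and 2 fell in Virma cKO, with Sp5 at 3.38 ± 0.66. Of 6 KEOPS genes and Trp53, 0 rose and 3 fell in Virma cKO, namely Osgep (-0.85 ± 0.18), Trp53rka and Trp53 (-0.41 ± 0.13). These changes in Virma cKO passed edgeR's test with adjusted p values under the threshold, in the contrast that chose the 8 genes.

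The genes most like each of the 8 were found by Pearson's r of log2(CPM + 1) group means, centred within each table, over the 16 groups of the actinomycin D, Mettl3, siIgf2bp3, sorted and embryoid tables. Alcam was most like Fbln2 (r = 0.960) and Thbs2 (r = 0.959), genes of extracellular matrix proteins. Mcc was most like Brca2 (0.990), and Hyal2 was most like Exosc1 (0.988) and Trib3 (0.968). Cdcp1 was most like Arhgap29 (0.934), Sema6a like Dbf4 (0.935), Gria3 like Ankrd46 (0.935), Fam83g like Terf2ip (0.952) and Trp53rkb like Ifrd1 (0.943). These r values are the highest among 10231 genes, and the groups share tables and scaling, so they describe which profiles look alike.

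The order of levels over the 19 groups had few clear steps for most of the genes. The tables were scaled separately. The choice of genes favoured a high place for Virma cKO and a low one for Virma WT, so these places are description only. For Cdcp1, neighbours in the order had overlapping library ranges in 15 pairs, and Virma cKO at 24.8 CPM stood clear of PrEdiff at 0 h at 11.2 CPM. For Sema6a they overlapped in 12 pairs, and EPI-E at 61.7 CPM stood clear of embryoid VE at 28.4 CPM. For Mcc they overlapped in 7 pairs, with Virma cKO at 67.3 CPM clear of EPSC at 41.6 CPM and embryoid VE lowest at 0.461 CPM. Gria3 overlapped in 13 pairs, with Virma cKO at 20.2 CPM clear of Mettl3 cKO at 13.5 CPM. Alcam overlapped in 12 pairs, with Virma cKO at 26.3 CPM clear of Mettl3 cKO at 20.2 CPM. For Hyal2 (9 pairs), Fam83g (12 pairs) and Trp53rkb (13 pairs) the highest group overlapped the next.

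The transcripts of the 8 genes ran from 2062 bases for Hyal2 to 7858 bases for Mcc, beside a median of 3055 bases over 12804 genes with a transcript in GENCODE (GRCm38). The motif GGACT, one form of the sequence at which m6A is written, occurred 3 to 7 times on the sense strand, at 0.578 per kb in Gria3 to 1.58 per kb in Trp53rkb, and 92.0% of all transcripts hold it. Their percentiles of motif density ran from 21.9 for Gria3 to 77.2 for Trp53rkb, on both sides of the median of 1.05 per kb. The longest exon was 5008 bases in Mcc, 4124 bases in Trp53rkb and 967 bases in Hyal2, beside a median of 1378 bases. Cdcp1 and Hyal2 are on chromosome 9, Sema6a and Mcc on chromosome 18, Gria3 on chromosome X, Fam83g on chromosome 11, Alcam on chromosome 16 and Trp53rkb on chromosome 2. A motif match in a transcript is a description of its letters and not a measured m6A site.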

How the data were processed

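RNA was measured by sequencing in 46 libraries. Per the labels' protocols, a stranded SMARTer kit or a VAHTS kit was used with a NovaSeq instrument; the sources do not say which kit made which library. Tools named in the submitters' processing notes are Subread, STAR 2.7.11b, FastQC 0.12.1, Trim Galore and DESeq2, with the build mm39; no annotation or strand setting is given there. The values in all 7 tables are raw counts, as deposited, with 21812 distinct symbols per table. Of these, 19 were listed more than once for the EPSC libraries and were dropped there. The number of sample columns left unused was 0. Column names of the Virma table carry the word input, with no further account. Total counts per library ran from 10590199 to 12250333 in the Virma table, 8516622 to 12164428 in the Mettl3 table, 8160276 to 8643434 in the siIgf2bp3 table, 12788803 to 15973967 in sorted cells, 7267487 to 14824609 in embryoids, 14927080 to 22280769 with actinomycin D and 6854433 to 10005196 in EPSCs. The SE is the size of the log2 change divided by the square root of the F value of edgeR's test. The 95% intervals are the log2 change ± 1.96 SE. This normal approximation may make them too narrow with so few libraries. Intervals and p-values cover counting error and the spread between libraries only.

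Each table was fitted on its own with edgeR 4.0.16 (R 4.3.3): TMM scaling, genes kept by a minimum count of 10 and a total of 15, a robust quasi-likelihood fit, Benjamini-Hochberg adjustment over all genes tested and a threshold of 0.05. The 0 h contrast and the slopes were fitted over all 16 actinomycin D libraries, the slopes as an intercept and a change per hour in each state. The 8 genes and all gene lists were chosen with earlier results of these data known. Besides the 8, the text names the targeted genes, up to 4 called genes per list and comparison by adjusted p, the next 2 genes of the Virma rule and, for likeness (pseudocount 1 CPM, mean of at least 5 CPM), 1 or both of the 2 closest genes. Slc5a10 and the sum of both Trp53rk genes were added after their values were seen. Transcripts came from GENCODE M21 on GRCm38, and promoters from RefSeq on GRCm38.p6, which held 5 of the 8 genes; neither is the build of the count tables, so no position in mm39 is given. Alternatives were RLE size factors, scaling to library totals or to ribosomal protein genes, DESeq2 1.42.0, no low-count filter, the replicate number as a block, leaving out each library in turn, slopes without 3 h, and 2 h against 0 h alone. Shared replicate numbers did not pair the samples. The fits were tested on simulated counts.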

Additional observations from a re-analysis of the deposited data

Results flagged for a closer look

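Among 15 sets of 6 embryoid libraries tested for a library far from the others, 1 was singled out: Alcam had 0.478 CPM, from 4 counts, in VE replicate 6, while the other VE libraries had 0 or 1 count. About 1 in 20 such sets is singled out by chance. At these counts the gene was close to the detection limit in VE.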

How the results depend on the processing

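Outside the Virma table, whose contrast chose the genes and has no test here, 827 of 901 alternative values for the 8 genes kept both their direction and their side of the threshold, 32 passed it anew, 13 no longer passed it and 29 changed sign. In the Virma table, 16 of 80 alternative log2 differences moved by 1 SE or more. Those of all 8 genes did so with scaling to ribosomal protein genes, to values from 2.27 for Trp53rkb to 2.72 for Cdcp1.

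For Mettl3 cKO against WT, 518 genes were called, against 561 with scaling to library totals, 289 with scaling to ribosomal protein genes, 666 with no low-count filter and 247 with DESeq2. The number of the 8 genes called was 1, against 2 with scaling to library totals, 0 with ribosomal protein scaling, 2 with no low-count filter and 0 to 1 when 1 library was left out. Same-numbered Mettl3 libraries had deviations that correlated at -0.13, and with crossed pairing, chosen after seeing the data, as a replicate block 1421 genes and 5 of the 8 were called. The replicate numbers did not pair the samples in any table. The block gave 407 genes for Mettl3, 4285 for Virma (4348 without it) and 1467 for siIgf2bp3 (945 without it), and 1 of 6 embryoid pairs correlated best with its own number. For siIgf2bp3, 1699 genes were called with no low-count filter, and leaving out 1 library gave 236 to 4948 genes and 0 to 2 of the 8. DESeq2 gave no adjusted p for Cdcp1 and Trp53rkb in the Mettl3 table and for Cdcp1, Sema6a, Gria3, Alcam and Trp53rkb in the siIgf2bp3 table, so it gave no count of the 8 there.

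Without the 3 h libraries 8375 genes had slopes called in PrEdiff (5210 with them), 9447 in EPS (5180) and 922 for the difference (180). With 2 h against 0 h alone the counts were 9456 in PrEdiff and 10130 in EPS, with 6 of the 8 called in PrEdiff. Scaling to library totals also called 6 of the 8 in PrEdiff, against 3, and it called 5335 of all genes there, of which 4802 fell. Leaving out 1 library gave 3174 to 5480 genes in PrEdiff and 88 to 208 for the difference. DESeq2 called 528 genes for the difference, and scaling to library totals called 132. For the difference 1 of the 8 was called with library totals and with DESeq2, and 0 to 1 when a library was left out.

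Signs turned for values that were not called. When 1 library was left out, Fam83g ran from -0.0924 to 0.244 for Mettl3. For siIgf2bp3 Cdcp1 ran from -0.190 to 0.311, Sema6a from -0.131 to 0.367, Hyal2 from -0.303 to 0.155, Alcam from -0.616 to 0.473 and Trp53rkb from -0.323 to 0.151. For PrE-E Fam83g ran from -0.696 to 0.849, Alcam from -6.61 to 1.72 and Trp53rkb from -0.484 to 0.0401. The PrEdiff slope of Alcam ran from -0.0261 to 0.139, and the slope differences of Sema6a and Gria3 ran from -0.0386 to 0.250 and from -0.140 to 0.0308. For PrE-E, Alcam was -0.666 with the replicate block and Trp53rkb 0.0118 with ribosomal scaling. Without 3 h, the slope was -0.0550 for Gria3 in EPS and -0.124 for Alcam in PrEdiff, and the difference was -0.0321 for Sema6a, 0.0391 for Mcc, 0.231 for Gria3 and -0.279 for Trp53rkb. With 2 h against 0 h, it was -0.0753 for Gria3 in EPS and -0.114 for Alcam in PrEdiff. With library totals, the PrEdiff slope was -0.00935 for Gria3 and -0.0446 for Alcam. The causes were not tested.

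Scaling moved the median of all genes in the Virma table by more than 0.1: it was 0.02 with TMM factors, 0.20 with library totals and 0.43 with ribosomal protein genes. The share of called genes that rose there was 45.6%, 66.7% and 86.6%. Ribosomal scaling took that share to 49.5% for Mettl3 (63.5% with TMM), 61.4% for PrE-E (48.9%) and 60.6% for VE (47.6%), and library totals took it to 57.7% for PrEdiff at 0 h (46.7%). Low counts limit what can be seen for Gria3 and Alcam in the siIgf2bp3, sorted and embryoid tables. They do so too for Sema6a, Trp53rkb and Alcam in the PrEdiff libraries of the actinomycin D table.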
